A study of Mus musculus with 6 samples.

Results

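The 8 chemokine receptor genes Ccr1, Ccr2, Ccr7, Cx3cr1, Cxcr2, Cxcr3, Cxcr4 and Cxcr6 were followed through the cells of orthotopic liver tumors, as 8 of the 34099 genes counted in these libraries. They were chosen by gene symbol, each symbol matched 1 gene, and the choice was made with earlier results of these data known. The tumors grew from H22, a murine hepatocellular carcinoma cell line, in the liver of wild type male C57BL/6J mice that were 8 weeks old on purchase. In the stress group, 3 mice went through chronic unpredictable mild stress for 21 days before the tumor cells were implanted, and the control group was 3 mice in standard housing. Each mouse gave 1 single-cell RNA library, and UMIs (molecules counted once each) were summed per mouse over the cell types and clusters of the authors' annotation.

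Chemokine receptors are membrane-spanning receptors that couple to Gi proteins and steer leukocytes along gradients of chemokines. Ccr1, Ccr2, Cx3cr1 and Cxcr2 are known for the traffic of myeloid cells, Ccr7 for the passage of dendritic cells (DCs) and naive T cells to lymph nodes, Cxcr3 and Cxcr6 for effector T cells in inflamed tissue and the liver, and Cxcr4 for retention of many leukocytes near its ligand Cxcl12. In tumors they are known for their part in which leukocytes enter and stay.

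The annotation placed 58794 cells in 28 clusters and 10 cell types, 7 of them immune. The median UMI count per cell ranged from 7166 to 20478 between mice. Of the annotated barcodes, 386 occurred in more than 1 library. Control libraries were counted with Cell Ranger 9.0.0 and stress libraries with 7.1.0, as the matrix headers state, and an effect of the version cannot be told apart from one of stress. Several labels were only partly borne out by their markers. Inflammatory myeloid cells, with a median of 1156 to 1988 UMIs per mouse, had the highest Csf3r of all cell types (500.3 CPM, UMIs of the gene per 1000000 UMIs of a class in a mouse, averaged over the mice) and 14282 CPM of S100a9, both neutrophil genes, beside 17.1 of the macrophage marker Adgre1. Monocytic myeloid-derived suppressor cells (M-MDSCs) carried 340.2 CPM of Krt18, close to the 423.0 of tumor cells, and 62.6% of them were called doublets. B cells included 58 of 457 cells with a UMI of the plasmacytoid DC genes Siglech or Ccr9 and none of the B cell genes Cd79a, Cd79b or Ms4a1. NK/T cells and DCs had the highest Cd3e (347.3) and Flt3 (37.0), respectively. DC cluster 19 held 37.1% called doublets, and its median UMI count was 21873 in stress mouse 2 against 899 to 1564 in the other mice.

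All 8 are protein coding genes. In GENCODE M21 (GRCm38), 4 of them lie on chromosome 9: Cx3cr1 at chr9:119901616-120069879, Cxcr6 at chr9:123806475-123811760, Ccr1 at chr9:123962124-123968692 and Ccr2 at chr9:124101950-124113557. Cxcr2 lies at chr1:74153989-74161246, Cxcr4 at chr1:128588199-128592293, Ccr7 at chr11:99144196-99155077 and Cxcr3 at chrX:101731535-101734269. Cxcr6 and Ccr2 are on the plus strand of chromosome 9, Cx3cr1 and Ccr1 on its minus strand. Of all stretches of 91 bases in their transcripts, 0.923% of those of Ccr2 and 0.165% of those of Cxcr2 also occur in another gene, and none of those of the other 6 members does, so that few reads could be shared with a near-identical copy.

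The RefSeq promoter table (GRCm38.p6) had an entry for 7 of the 8 genes, all but Ccr7. The 250 bases before the start of Cx3cr1, the only gene with an entry that passed the test of stress against control, and of Ccr1, whose window held the 1 motif match found, are shown here 5′ to 3′ in the direction of the gene. Both genes read from the minus strand, and the windows are chr9:120068297-120068546 (inside the gene span of Cx3cr1 given above) and chr9:123968693-123968942.
Cx3cr1: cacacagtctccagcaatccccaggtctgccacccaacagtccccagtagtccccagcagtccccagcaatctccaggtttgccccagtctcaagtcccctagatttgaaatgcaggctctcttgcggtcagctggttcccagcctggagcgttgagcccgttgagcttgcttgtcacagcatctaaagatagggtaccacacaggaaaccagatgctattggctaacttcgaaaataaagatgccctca
Ccr1: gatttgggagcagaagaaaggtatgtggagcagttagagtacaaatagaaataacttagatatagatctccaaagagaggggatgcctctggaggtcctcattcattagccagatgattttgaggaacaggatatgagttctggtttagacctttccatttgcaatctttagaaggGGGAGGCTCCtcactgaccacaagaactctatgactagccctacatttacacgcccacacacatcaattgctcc
The capitals mark a match to the NF-kappaB motif (GGGA, any 4 bases, CC), which 17.6% of the 32851 promoter windows of this length held on either strand. Neither the glucocorticoid receptor palindrome (GNACA, any 3 bases, TGTNC, in 0.387% of all windows) nor the interferon-stimulated response element (GAAA, any 2 bases, GAAA, in 2.98%) occurred in the windows of the 7 genes. A match says only that these letters are present.

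Levels of the receptors are means ± SD over the 6 mice. They are compared between cell types and not between genes, and the order of cell types is a description without a test. Among the receptors of myeloid cells, Ccr1, a receptor for Ccl3 and Ccl5, reached 712.5 ± 286.8 CPM in inflammatory myeloid cells, 337.6 ± 131.8 in neutrophils and 223.9 ± 72.7 in monocytes. DCs (59.2 ± 19.1) and M-MDSCs (50.4 ± 25.2) followed, and their ranges overlapped. Ccr2, the receptor for Ccl2, was highest in monocytes with 178.8 ± 75.0 CPM, followed by DCs (35.7 ± 10.9) and NK/T cells (32.3 ± 11.2), which did not differ beyond their spread. Monocytes held 80.5% of all Ccr2 UMIs. Cxcr2, the receptor for Cxcl1 and Cxcl2 on neutrophils, had 154.2 ± 70.1 CPM in inflammatory myeloid cells and 151.0 ± 94.9 in neutrophils, an order within the spread, then 13.7 ± 6.53 in M-MDSCs and at most 2.25 in any other cell type. Cx3cr1, the fractalkine receptor of patrolling monocytes and cytotoxic lymphocytes, was low throughout, with 34.5 ± 8.39 CPM in NK/T cells, 25.2 ± 3.92 in monocytes and 17.9 ± 20.2 in DCs.

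Cxcr6, the receptor for Cxcl16, had 199.3 ± 42.2 CPM in NK/T cells, which held 85.4% of its UMIs, and 12.6 ± 18.5 in neutrophils, where it rests on 24 UMIs. Ccr7, the receptor for Ccl19 and Ccl21a, had 293.6 ± 193.1 CPM in DCs, which held 65.8% of its UMIs (519.5 CPM in thinned cells and 620.5 CPM without called doublets), ahead of NK/T cells (64.8 ± 45.1) and B cells (62.8 ± 36.5). Cxcr3, the receptor for Cxcl9 and Cxcl10, reached 38.0 ± 13.3 CPM in NK/T cells and 34.2 ± 12.9 in B cells, which did not differ beyond their spread. Cxcr4 was spread over immune classes, with 228.4 ± 143.9 CPM in inflammatory myeloid cells, 131.9 ± 27.6 in monocytes, 110.3 ± 40.9 in NK/T cells, 95.2 ± 54.5 in B cells and 62.1 ± 24.1 in DCs, neighbors within each other's spread. The plot of levels by cell type shows these patterns for each mouse.

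**Figure D1:**
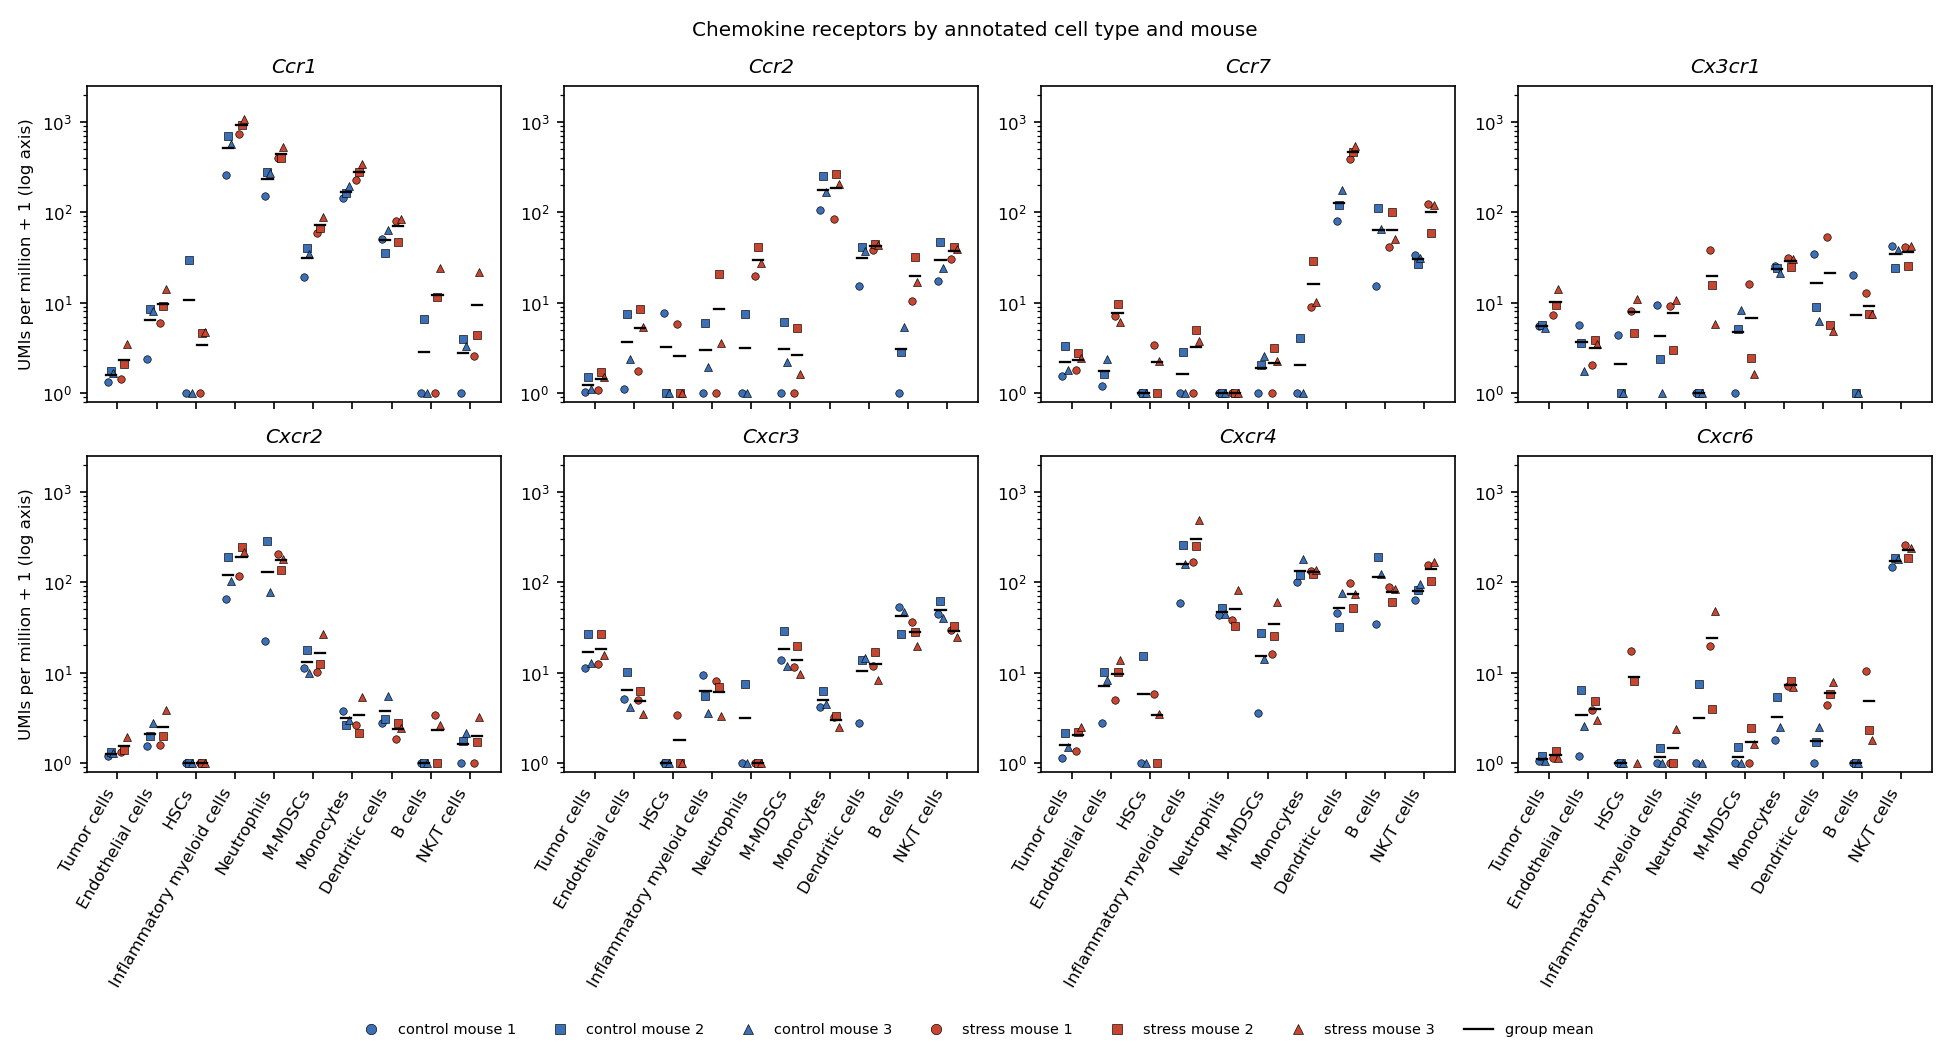
CPM plus 1 (log axis) of each receptor in the 10 annotated cell types, 1 point per mouse (blue control, red stress, shape the replicate number) and a bar at each group mean. Cxcr6 stood highest in NK/T cells, Ccr7 in DCs, Ccr2 in monocytes, and Ccr1 and Cxcr2 in inflammatory myeloid cells and neutrophils, and neutrophils and HSCs had fewer than 10 cells in some mice.

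Every immune class except monocytes and DCs was 1 cluster. Within monocytes, Ccr2 was highest in cluster 12 (318.0 CPM), against 162.7 in cluster 11 and 88.4 in cluster 13, whereas Cxcr4 was even over the 3 clusters (137.9, 133.6 and 123.9 CPM). Within DCs, Ccr7 lay at 744.2 CPM in cluster 20 and 39.0 in cluster 19. Since the clusters were formed on the expression of these same cells, such differences describe the clusters and are not tests. In cluster 20, the 442 cells with a UMI of the migratory DC genes Fscn1, Ccl22, Cacnb3 or Il4i1 carried 1586 CPM of Ccr7, and the other 335 carried 158.4, at median depths of 7123 and 7124 UMIs.

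Over the 9 immune clusters with at least 10 cells in every mouse, the genes whose mean log2(CPM + 1) ran most like each receptor were taken from 10786 genes. For Cxcr6 these were Cd226, Ifng and Pdcd1 (Pearson r 0.996, 0.994 and 0.991), genes of activated T and NK cells. For Ccr1 they were Nlrp3, Tlr13 and Slc7a11 (0.993, 0.993 and 0.988), and for Ccr2 Dse, Naip6 and Naip5 (0.979, 0.972 and 0.969). Cxcr2 ran with Gm20406, Il36g and Retnlg (0.994, 0.991 and 0.991), of which Retnlg is a neutrophil gene, and Cxcr3 with Nxpe3, Scai and Kcnq5 (0.989, 0.983 and 0.974). The closest genes were weaker for Ccr7 (Scnm1, P2ry10 and Ctnnd2 with 0.950, 0.933 and 0.931) and Cx3cr1 (Gab3, Vps45 and Tmem50a with 0.919, 0.907 and 0.898), and for Cxcr4 they were AKAP17A, Lrrc8d and Helz2 (0.988, 0.953 and 0.952). These correlations rest on 9 clusters that share libraries.

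The stress comparison asked whether the receptors differed between stress and control mice within each cell type. UMIs summed per mouse were tested with edgeR's quasi-likelihood test, with Benjamini-Hochberg adjustment over all genes tested in that cell type and a threshold of 0.05. Each library is a separate mouse of its group. Where groups are described below as not overlapping, the share of all genes that separated likewise was not counted. With 3 mice against 3, the smallest exact permutation p, both directions counted, is 0.1. In the 8 cell types with at least 10 cells in every mouse, 48 combinations of receptor and cell type passed the filter on low counts, and 3 passed the threshold, all higher in stress mice: Ccr7 in DCs, Ccr7 in NK/T cells and Cx3cr1 in tumor cells. By comparison, 2.64% of the genes tested were called in DCs, 0.857% in NK/T cells and 21.4% in tumor cells. DESeq2 called 6 of the 48, and 13 had an unadjusted p under 0.05, where over all genes tested in the 8 cell types DESeq2 called 6.85% and 17.4% had such a p. The plot of stress effects gives the fold changes of the receptors with a mean of at least 10 CPM, and of Cx3cr1 in tumor cells.

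**Figure D2:**
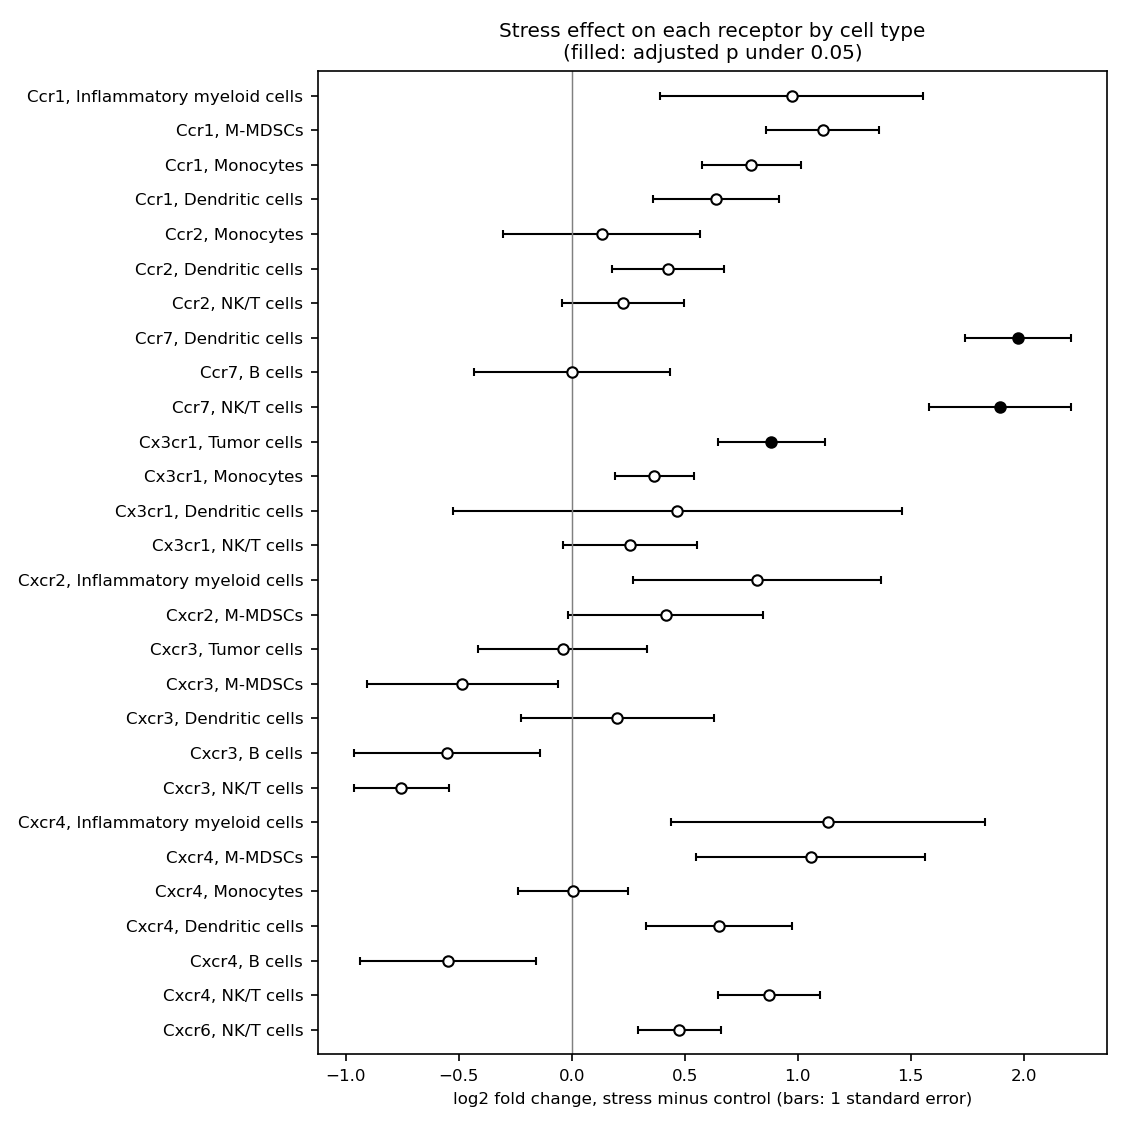
Log2 fold change of stress over control mice with 1 standard error, for each receptor and cell type with a mean of at least 10 CPM, plus Cx3cr1 in tumor cells, from edgeR. Filled points passed an adjusted p of 0.05: Ccr7 in DCs (1.97) and NK/T cells (1.90) and Cx3cr1 in tumor cells (0.88).

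Ccr7 in DCs was the largest of these 3 differences. It lay at 79.6, 118.1 and 176.5 CPM in control mice 1, 2 and 3 against 389.8, 462.7 and 534.9 CPM in stress mice 1, 2 and 3. The lowest stress mouse was above the highest control mouse. The log2 fold change was 1.97 (SE 0.23, edgeR adjusted p = 0.00211), and the adjusted p stayed between 3.53e-25 and 0.0340 over the alternative settings. Within cluster 20, where Ccr7 is concentrated, the 3 control mice had 267.3, 429.2 and 678.3 CPM and the 3 stress mice 750.8, 1139.6 and 1200.1. The groups again did not overlap, but the log2 fold change of 1.24 (SE 0.32) did not pass the threshold (edgeR adjusted p = 0.126). With the replicate number as a block it did (1.31, edgeR adjusted p = 0.00261). Deviations of same-numbered mice correlated at 0.153 to 0.349 in this cluster, and those of other pairs at up to 0.158. Of all genes tested in cluster 20, 0.313% were called. Cluster 19 gave 4.95, 12.6 and 34.5 CPM in control mice against 62.5, 57.6 and 62.0 in stress mice (log2 fold change 1.73, SE 0.39, adjusted p = 0.0953, with 0.425% of genes called). Without the filter on low counts the adjusted p was 0.000114 in cluster 20 and 6.12e-07 in cluster 19, with DESeq2 0.0146 and 0.00507, and without called doublets 0.0421 and 0.00920. In cluster 19 it was also 0.00832 with the block and 0.0334 without control mouse 3. Over the 9 immune clusters pooled, the main fit called 0.345% of all genes. No filter called 1.60%, DESeq2 0.979%, cells without called doublets 1.05%, the block 1.54%, and leaving out control mouse 3 0.109%. The log2 fold change in cluster 19 moved to 3.32 without called doublets and 2.55 without control mouse 3. Over all alternatives the adjusted p reached 0.444 in cluster 20 and 0.331 in cluster 19.

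The DC class also differed in its make-up. Cluster 20 supplied 28.5%, 25.3% and 22.1% of the DC UMIs in control mice 1, 2 and 3 against 47.6%, 37.4% and 41.5% in stress mice, and at least 84.7% of the Ccr7 UMIs of DCs in every mouse. The part of this shift in the DC result was not tested. Cells of cluster 20 with at least 1 Ccr7 UMI made up 25.0%, 33.0% and 48.8% in control mice against 59.2%, 70.3% and 71.0% in stress mice, at median depths of 5354.5 to 7520 and 6865 to 8555.5 UMIs. After each cell was thinned to 1000 UMIs, the shares were 20%, 25.7% and 29.3% against 28.2%, 47.1% and 50%, and the groups overlapped. In tumor cells thinned in the same way, 0.0989% had a Ccr7 UMI. Among cells of cluster 20 with a migratory DC gene, Ccr7 lay at 812.6, 995.2 and 1544 CPM in control mice against 1288, 1759 and 1624 CPM in stress mice, with overlapping groups, although control mouse 1 had only 5 such cells.

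In NK/T cells, which were 1 cluster, Ccr7 lay at 32.7, 26.0 and 30.1 CPM in control mice against 122.0, 57.5 and 120.7 CPM in stress mice 1, 2 and 3. Stress mouse 2 was the lowest of its group and still above every control mouse. The log2 fold change was 1.90 (SE 0.31, edgeR adjusted p = 0.0132). The call was lost when control mouse 1, 2 or 3 was left out (adjusted p = 0.0619, 0.0640 and 0.0743), with log2 fold changes of 1.95, 1.73 and 1.95. Cells with a Ccr7 UMI made up 11.8%, 8.75% and 11.1% of the NK/T cells in control mice against 17.8%, 13.6% and 21.6% in stress mice, and in thinned cells the shares were 5.43%, 2.99% and 5.56% against 6.74%, 4.48% and 7.84%, where the groups overlapped. The median depth of these cells was 2958, 3153 and 4376.5 UMIs in control mice against 4477, 4876.5 and 5923 in stress mice.

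Cd3e, a subunit of the T cell receptor complex, was found in 79.4% of the 354 cells with a Ccr7 UMI and in 76.7% of the 2136 without, at median depths of 6750.5 and 4101 UMIs. Its level went the other way, at 261.5 CPM in the first and 324.8 in the second. Of the 8 DC and migratory DC genes, 7 were found in a larger share of the deeper cells with a Ccr7 UMI, such as Flt3 (3.11% against 0.328%) and Fscn1 (7.91% against 1.17%). Itgax, an integrin subunit, was found in a smaller share (2.82% against 5.24%). Pecam1 of endothelial cells (28.5% against 13.3%) and Krt18 of tumor cells (19.5% against 12.97%) were also found in a larger share. So was Lyz2 of monocytes (7.91% against 6.13%), whereas Cd79a of B cells was not (0.282% against 0.468%). By level, Pecam1 (48.5 against 29.8 CPM) and Lyz2 (52.5 against 21.2) were higher, and Krt18 was even (136.7 against 136.8). The part of depth in these shares was not tested. When only NK/T cells without a UMI of the 8 DC and migratory DC genes were kept, a setting added after the data were seen, the Ccr7 difference was as large (log2 fold change 1.90, adjusted p = 0.00436). That setting called more genes in general, 316 of 9492 tested against 96 of 11196 in all NK/T cells. Among cells with a Cd8a and no Cd4 UMI, Ccr7 lay at 22.97, 21.96 and 30.8 CPM in control mice against 109.6, 52.5 and 117.5 in stress mice. Among those with a Cd4 and no Cd8a UMI, the values were 35.8, 18.4 and 53.2 against 191.8, 64.2 and 95.7. Both subsets kept the stress mice above the control mice. The whole NK/T class held 93, 674 and 126 cells in control mice against 269, 814 and 514 in stress mice. The subsets of control mice 1 and 3 therefore rest on few cells. NK/T cells with a Cxcr6 UMI carried 49.0 CPM of Ccr7 and those without carried 101.6, at median depths of 5147 and 3587 UMIs.

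Ccr7 was not higher in stress mice in every cell type. B cells had 14.2, 109.4 and 63.7 CPM in control mice against 39.9, 100.6 and 49.0 in stress mice (log2 fold change 0.00, SE 0.43, adjusted p = 0.999), with 20 to 114 B cells per mouse. Tumor cells had 0.557, 2.32 and 0.776 CPM in control mice against 0.780, 1.78 and 1.45 in stress mice, with overlapping groups in the largest class. The fold change in B cells was lower than in DCs by 1.99 on the log2 scale (SE 0.42, unadjusted p = 0.000242), which did not pass adjustment over all genes (edgeR adjusted p = 0.152). The fold change in DCs was larger than in NK/T cells by 0.22 on the log2 scale, within its error (SE 0.36, edgeR unadjusted p = 0.551).

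Low counts of Ccr7 appeared in other classes of stress mice. Monocytes had 0, 3.08 and 0 CPM in control mice against 7.97, 28.0 and 9.20 in stress mice, and endothelial cells had 0.182, 0.618 and 1.39 against 6.12, 8.68 and 5.11. Neither class overlapped between groups, and neither passed the threshold (adjusted p = 0.233 and 0.0949), where 0.122% and 0.213% of all genes were called. Without the filter on low counts both passed (0.00332 and 0.0197), and DESeq2 called Ccr7 in endothelial cells (4.48e-06), while over all alternatives the adjusted p reached 0.553 in monocytes and 0.235 in endothelial cells. With the replicate number as a block, the edgeR adjusted p in monocytes was 0.0254. Deviations of same-numbered mice correlated at 0.146 to 0.476 in monocytes, and those of other pairs at up to 0.187. In monocyte cluster 11, the values were 0, 4.36 and 0 CPM against 17.1, 49.8 and 15.2 (adjusted p = 0.132, 0.102% of genes called, with 6.24e-14 without the filter, 0.00472 with the block and up to 0.392 otherwise). Over the 9 immune clusters pooled, 1.60% of all genes were called without the filter and 1.54% with the block, against 0.345% in the main fit. Some markers of other cell types moved with the Ccr7 counts of monocytes and endothelial cells. All 8 DC and migratory DC genes were found in a larger share of the cells with a Ccr7 UMI in both classes: Ccl22 was found in 21.2% of the 165 monocytes with a Ccr7 UMI and in 1.85% of the 6095 without, and in endothelial cells the shares were 12.7% of 71 and 0.15% of 11362. By level, Zbtb46 went the other way in endothelial cells, at 109.5 CPM with a Ccr7 UMI and 131.0 CPM without. Cd3e of T cells was found in 7.88% against 1.48% of these monocytes and in 14.1% against 0.871% of these endothelial cells, and Cd79a of B cells in 8.45% against 0.282% of the endothelial cells. In monocytes Cd79a was in 1 cell with a Ccr7 UMI, and Pecam1 of endothelial cells (16.97% against 17.05%) and Krt18 of tumor cells (9.09% against 9.32%) were not more frequent. In endothelial cells Krt18 was found in 28.2% against 11.03%, and Lyz2 of monocytes in 14.1% against 6.77%. The cells with a Ccr7 UMI were deeper, with medians of 7001 against 5256 UMIs in monocytes and 9851 against 4526 in endothelial cells, and the part of depth was not tested. Keeping only monocytes without a UMI of the 8 DC and migratory DC genes, a setting added after the data were seen, left 1940 of 6260 cells and 13 of 442 Ccr7 UMIs. Of these genes, H2-Aa alone was found in 63.3% of the monocytes without a Ccr7 UMI. In the cells that were kept, Ccr7 lay at 0, 3.18 and 0 CPM in control mice against 0, 3.44 and 1.74 in stress mice, and the groups overlapped. The plot of Ccr7 by mouse sets these classes side by side.

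**Figure D3:**
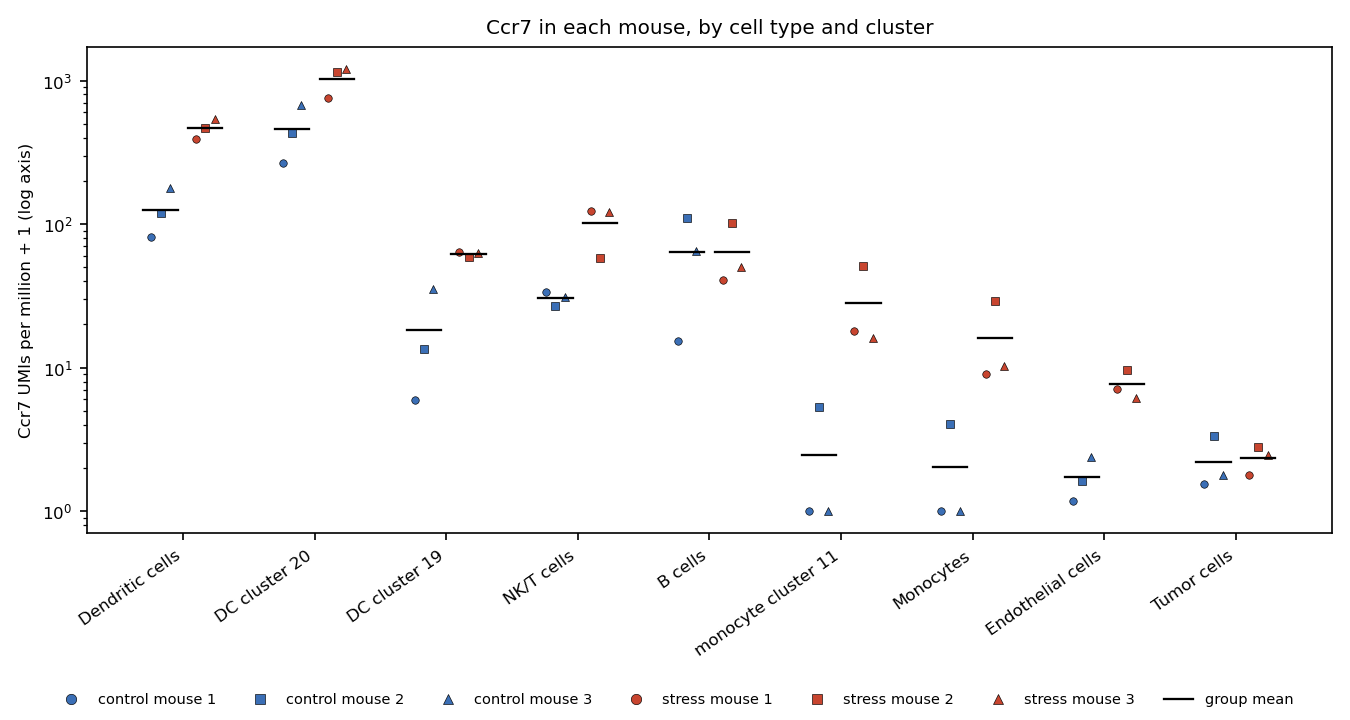
Ccr7 CPM plus 1 (log axis) in 6 cell types and in DC clusters 20 and 19 and monocyte cluster 11, 1 point per mouse with a bar at each group mean. Stress mice lay above all control mice in DCs, both DC clusters, NK/T cells, monocytes and endothelial cells, and among the control mice in B cells and tumor cells.

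Cxcr4 in NK/T cells lay higher in stress mice but did not pass the threshold. Its 63.3, 81.1 and 94.97 CPM in control mice compared with 154.9, 102.3 and 165.2 in stress mice, and the groups did not overlap. The log2 fold change was 0.87 (SE 0.22, edgeR adjusted p = 0.109, range 0.000129 to 0.366 over the alternatives). Thinned cells, cells without called doublets, DESeq2, no filter on low counts and leaving out stress mouse 2 each brought it past the threshold, as did keeping only NK/T cells without a UMI of the 8 DC genes (0.90, edgeR adjusted p = 0.0270). That last setting called 316 of 9492 genes, against 96 of 11196 in all NK/T cells. In monocytes, where Cxcr4 was at least as abundant, control mice had 100.7, 118.0 and 182.0 CPM and stress mice 131.9, 122.1 and 136.7 (log2 fold change 0.01, SE 0.24, adjusted p = 0.993). Inflammatory myeloid cells gave 1.13 (SE 0.69), M-MDSCs 1.06 (SE 0.51), DCs 0.65 (SE 0.32) and B cells -0.55 (SE 0.39). The groups overlapped in each of these, and none passed, though M-MDSCs (adjusted p = 0.0276) and DCs (0.0294) did without the edgeR filter on low counts. The effect in NK/T cells exceeded that in monocytes by 0.85 on the log2 scale (SE 0.23, unadjusted p = 0.00402), which did not pass adjustment over all genes (edgeR adjusted p = 0.751).

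Of the 6 receptors with a mean of at least 10 CPM in NK/T cells, Cxcr3 was the only one with a lower mean in stress mice. Control mice had 42.9, 61.2 and 39.4 CPM and stress mice 28.7, 32.1 and 23.7, without overlap. The log2 fold change of -0.75 (SE 0.21) did not pass the threshold (edgeR adjusted p = 0.149), whereas it was -1.41 in thinned cells (adjusted p = 0.00796) and -1.05 without called doublets (adjusted p = 0.0137). Over the 8 cell types pooled, thinned cells called 1.64% of all genes and cells without called doublets 6.07%. Over all alternatives the adjusted p reached 0.400. Keeping only NK/T cells without a UMI of the 8 DC genes gave Cxcr3 -0.91 (edgeR adjusted p = 0.0624), which did not pass. Of the 6 receptors tested in that setting, 2 were called, Ccr7 and Cxcr4. Cxcr6 had 147.1, 185.1 and 180.7 CPM in control mice against 260.5, 182.6 and 239.6 in stress mice, with stress mouse 2 among the controls (log2 fold change 0.48, SE 0.19, adjusted p = 0.299). Cx3cr1 differed by 0.26 (SE 0.30) and Ccr2 by 0.23 (SE 0.27), both with overlapping groups. These values are shown in the plot of the receptors of NK/T cells.

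**Figure D4:**
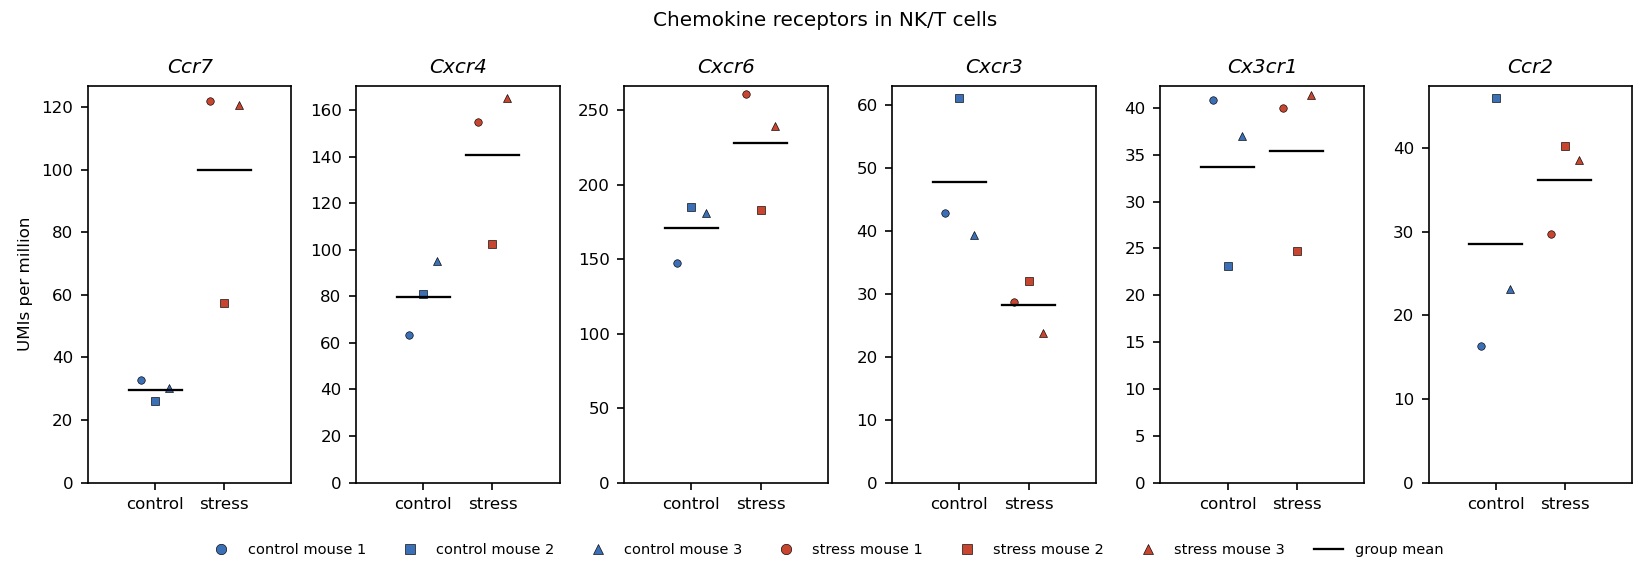
CPM of 6 receptors in NK/T cells of control and stress mice, 1 point per mouse with a bar at each group mean and axes from 0. Ccr7 and Cxcr4 lay higher and Cxcr3 lower in all 3 stress mice than in all 3 control mice, and only Ccr7 passed the threshold. How many of all NK/T genes separate the groups was not counted, and 13.1% of them had an unadjusted edgeR p under 0.05.

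Among myeloid receptors, Ccr1 had a higher mean in stress mice in monocytes, inflammatory myeloid cells, M-MDSCs and DCs, and passed the threshold in none of the 4. Monocytes had 144.6, 163.7 and 195.1 CPM in control mice against 226.5, 276.0 and 337.7 in stress mice, without overlap (log2 fold change 0.79, SE 0.22, edgeR adjusted p = 0.258). With the replicate number as a block the adjusted p was 0.0277 (log2 fold change 0.785). Inflammatory myeloid cells had 255.8, 700.0 and 574.3 CPM against 733.6, 931.9 and 1079.7 (log2 fold change 0.97, SE 0.58, adjusted p = 0.994), in a class where edgeR called 0% of 9219 genes, 365 had an unadjusted p under 0.05 and DESeq2 called 6. M-MDSCs, with 15 to 108 cells per mouse, had 18.0, 39.3 and 33.5 against 57.7, 66.2 and 87.9 (1.11, SE 0.25, adjusted p = 0.0918), where 0.561% of genes were called and 40.0% to 78.3% of the cells were called doublets. In monocyte cluster 12 the log2 fold change was 0.93 (SE 0.21, adjusted p = 0.119, 0.218% of genes called), in cluster 11 it was 0.82 (SE 0.22, adjusted p = 0.216), and in cluster 13, where 0.0984% of genes were called, it was 0.60 (SE 0.27, adjusted p = 0.574) with overlapping groups. DCs gave 0.64 (SE 0.28, adjusted p = 0.263). Some alternatives passed the threshold for Ccr1. Without the filter on low counts the adjusted p was 0.000482 in M-MDSCs, 0.0357 in DCs, 0.00513 in cluster 12 and 0.0191 in cluster 11. With DESeq2 it was 0.0497 in M-MDSCs and 0.00949 in cluster 12, and blocking on replicate number gave 0.0173 in M-MDSCs, 0.0499 in DCs, 0.0218 in cluster 12 and 0.0475 in cluster 11. Over all alternatives it reached 0.690 in monocytes, 0.471 in M-MDSCs, 0.921 in DCs, 0.424 in cluster 12 and 0.611 in cluster 11.

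Ccr2 in monocytes did not separate the groups. Control mice had 104.3, 250.1 and 167.9 CPM and stress mice 82.4, 265.5 and 202.6 (log2 fold change 0.13, SE 0.44, edgeR adjusted p = 0.918), and mouse 2 was the highest of both groups. In monocyte cluster 12, richest in Ccr2, the difference was -0.03 (SE 0.22). Ccr2 was scarce in the B cell class, with 0, 1 and 2 UMIs in control mice against 4, 24 and 20 in stress mice. Cells with a plasmacytoid DC gene and no B cell gene carried 128.8 CPM of Ccr2 and those with a B cell gene and no plasmacytoid DC gene 1.04, and the first numbered 0, 8 and 6 in control mice against 5, 24 and 15 in stress mice. Their part in the difference was not tested, and 0.483% of genes tested in B cells were called. Cxcr2 in inflammatory myeloid cells had 64.1, 187.2 and 102.5 CPM in control mice against 116.1, 242.6 and 213.0 in stress mice (0.82, SE 0.55, adjusted p = 0.994), with overlapping groups.

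In tumor cells, Cxcr3 lay at 10.3, 25.7 and 11.9 CPM in control mice against 11.5, 25.4 and 14.8 CPM in stress mice, and tumor cells, the largest class with 29638 cells, held 89.4% of all Cxcr3 UMIs. Their mean of 16.6 CPM was close to the 15.0 CPM over all cells, so this share is near their share of all UMIs. Mouse 2 of each group was about as high as the other and above all other mice, and stress made no difference beyond the error (log2 fold change -0.04, SE 0.37, edgeR adjusted p = 0.949). In thinned cells, 1.43% of tumor cells had a Cxcr3 UMI, against 0.139% of endothelial cells and 4.29% of NK/T cells, at the same 1000 UMIs per cell.

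Cx3cr1, named here after its values were seen since its mean in tumor cells lay under 10 CPM, had 4.55, 4.65 and 4.28 CPM in control mice against 6.21, 8.30 and 13.1 in stress mice. The control mice were close together, the stress mice spread out, and the groups did not overlap. The log2 fold change was 0.88 (SE 0.24, edgeR adjusted p = 0.0360). The median mitochondrial share of UMIs in tumor cells was also higher in every stress mouse (5.25% to 5.61%) than in the control mice (3.59% to 4.59%), and its part in this difference was not tested. The call was lost without control mouse 1 (adjusted p = 0.0893), control mouse 3 (0.115), stress mouse 2 (0.0660) or stress mouse 3 (0.0502), and in thinned cells (0.250). Among tumor cells without UMIs of the NK/T, monocyte and neutrophil markers, a setting added after the data were seen, it was as large (0.88, adjusted p = 0.0416). In that setting 1690 of 15942 genes were called. Tumor cells held 71.9% of all Cx3cr1 UMIs, but by CPM they ranked 6 among the cell types (6.85, against 7.58 over all cells). Over pooled cells, the highest level was in tumor cluster 17 (19.2 CPM, and 2.02 to 39.0 CPM between mice), whose median of 1852 UMIs per cell was the lowest of the tumor clusters, followed by cluster 6 (14.5 CPM, median 23597 UMIs). In cluster 6 the control mice had 14.3, 15.2 and 10.8 CPM and the stress mice 12.0, 15.3 and 23.2, with overlap, whereas in cluster 3 they had 2.47, 3.18 and 2.33 against 3.98, 6.08 and 10.6, without overlap. The groups did not overlap in clusters 4, 5, 9 and 14 either, and overlapped in the other 5 clusters. These clusters share the same 6 mice, and how many of all genes separate the groups in them was not counted. In tumor cells as a class, 37.4% of all genes had an unadjusted edgeR p under 0.05. The plot by tumor cluster shows both genes.

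**Figure D5:**
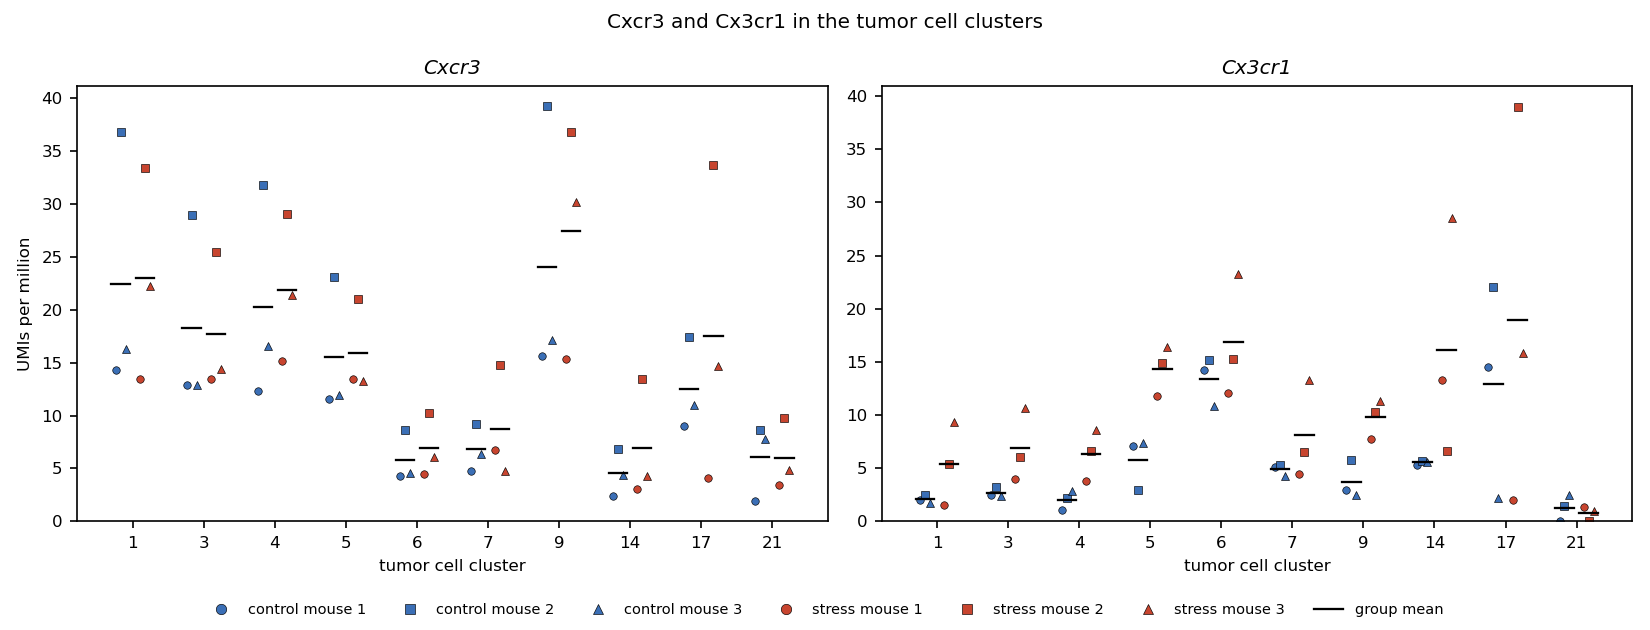
CPM of Cxcr3 and Cx3cr1 in the 10 tumor cell clusters, 1 point per mouse with a bar at each group mean and axes from 0. Cxcr3 was highest in mouse 2 of both groups, and Cx3cr1 was highest in clusters 17 and 6.

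Over all cells of a mouse together, no receptor passed the threshold in edgeR, where 10.1% of genes were called. That share rests on single mice, since leaving out control mouse 2 gave 11.8%, leaving out stress mouse 3 or 1 gave 0.822% or 0.0284%, and leaving out any other mouse gave 0%. At an unadjusted p under 0.05 there were 2, Ccr7 (log2 fold change 2.56, SE 0.72, adjusted p = 0.0695) and Cx3cr1 (0.83, SE 0.21, adjusted p = 0.0570), against 31.8% of all genes, and DESeq2 called 2, against 19.6% of all genes. In such sums, more cells of a type and more RNA per cell cannot be told apart. In the 5 monocyte and DC clusters that are not a whole class, 24 combinations were tested, of which edgeR called 0, DESeq2 3 (1.07% of all genes), and 8 had an unadjusted p under 0.05 (10.8% of all genes). The effect of stress was compared between immune cell types in 40 pairs in which a receptor had at least 10 CPM in both. Again edgeR called 0 of them, with 12 at an unadjusted p under 0.05 (5.14% over all genes and 15 pairs of cell types) and a lowest adjusted p of 0.126. Most of the 12 had B cells as 1 of their cell types, so they reuse the same B cell values. Ccr2 in B cells rests on 51 UMIs and did not pass the filter on low counts in the B cell fit. The share over all genes was taken without the 10 CPM limit.

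The 16 other chemokine receptors, including the atypical receptors that scavenge chemokines, had 3 of 11 tested called in tumor cells, all higher in stress mice and at low levels, where 21.4% of all genes were called: Ccr4 (1.52 to 6.04 CPM), Cxcr5 (0.867 to 1.99) and Ackr4 (0.190 to 0.453). Their median log2 fold change was 0.76, against -0.01 over all genes tested. Leaving out 1 mouse gave 2 to 5 called (5 without control mouse 2, and 2 without control mouse 1 or 3 or stress mouse 1 or 2), where 6.14% to 29.9% of all genes were called. The part of the mitochondrial share, higher in the tumor cells of every stress mouse as given above, was not tested. Ackr3, which takes up Cxcl12, was their most abundant member at 96.6 CPM. In all other classes edgeR called 0 of them, though up to 3 per class had an unadjusted p under 0.05 (3.96% to 17.0% of all genes per class) and DESeq2 called 1 in NK/T cells (1.52% of all genes). Over all cells 4 of 15 tested were called, all higher in stress mice (Cxcr5, Ccr4, Ccr9 and Ccr10, edgeR adjusted p = 0.0209 to 0.0471), where 10.1% of all genes were called. This count was 4 without control mouse 2, 1 without stress mouse 3 and 0 without any other mouse. Ccrl2, a receptor that binds chemerin, was the most abundant in inflammatory myeloid cells (1961 CPM), monocytes (400.9), DCs (136.9) and M-MDSCs (121.0).

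Of the chemokines that bind the 8 receptors, 20 of 21 listed genes were in the files. In DCs 4 of 13 tested were called, all higher in stress mice, where 2.64% of all genes were called, with a median log2 fold change of 0.76 against -0.02 over all genes. These were Cxcl10, a ligand of Cxcr3 (96.0 ± 79.6 to 324.4 ± 118.9 CPM, log2 fold change 1.76, adjusted p = 0.0409), Ccl5, a ligand of Ccr1 (295.8 to 779.0 CPM, 1.48, adjusted p = 0.0266), Cxcl16, the ligand of Cxcr6 (82.4 to 178.3 CPM, 1.17, adjusted p = 0.0113), and Ccl12, a ligand of Ccr2 (1.08 to 7.05 CPM, 2.32, adjusted p = 0.0460). DESeq2 called 2 of the 13 in DCs (3.39% of all genes). The part of the DC make-up, which differed between groups as given above, was not tested. In NK/T cells 1 of 10 was called, where 0.857% of all genes were called, Cxcl10 (25.3 to 106.9 CPM, log2 fold change 1.83, adjusted p = 0.0254), and in tumor cells 1 of 16, against 21.4% of all genes, Ccl2 (4.57 to 12.6 CPM, 1.32, adjusted p = 0.0496). For Ccl2 too, the part of the mitochondrial share of tumor cells was not tested. Ccl5 was the most abundant ligand in NK/T cells (5793 CPM) and Cxcl2 in monocytes (6607 CPM) and inflammatory myeloid cells (30999 CPM). In the other classes edgeR called 0 ligands, with up to 2 per class at an unadjusted p under 0.05 (3.96% to 15.6% of all genes per class) and 1 called by DESeq2 in monocytes (1.47% of all genes). Leaving out 1 mouse gave 0 to 4 called ligands in DCs (0 without stress mouse 3, 1 without control mouse 1 or 3, and 2 without stress mouse 1 or 2), where 0.668% to 3.66% of all genes were called. It gave 0 to 2 in NK/T cells (0 without control mouse 1 or 3 or stress mouse 1, and 2 without control mouse 2 or stress mouse 2), where 0.317% to 1.19% of all genes were called. In tumor cells it gave 0 to 3 (3 without control mouse 2, 1 without stress mouse 2 and 0 without any other). There 6.14% to 29.9% of all genes were called, the highest share without control mouse 2. Over all cells edgeR called 0 of 19 ligands tested, where 10.1% of all genes were called, and DESeq2 called 5, against 19.6%.

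The 21 genes of receptor signaling (Gi subunits, kinases, arrestins and regulators) had 7 of 20 called in tumor cells, where 21.4% of all genes were called, with a median log2 fold change of 0.05 against -0.01 over all genes. The median mitochondrial share in these cells, which moves with stress as given above, was not tested for its part in these calls. Lower in stress mice were Gnb1 (490.0 to 374.2 CPM), Gnb2 (340.2 to 227.6), Gnai2 (244.5 to 181.9), Arrb1 (15.2 to 6.55), Arrb2 (10.4 to 8.10) and Grk2 (36.3 to 24.8), and Elmo1, which couples receptors to Rac, was higher (3.53 to 9.51). DCs had 2 of 21 called, where 2.64% of all genes were called, both higher, Rgs10 (71.0 to 120.9 CPM, log2 fold change 0.92, adjusted p = 0.0144) and Pik3r5 (63.4 to 112.8 CPM, 0.92, adjusted p = 0.0148). The part of the DC make-up was not tested here either. In the other cell types edgeR called 0 of these genes, with up to 7 of 20 at an unadjusted p under 0.05 (in NK/T cells, where 13.1% of all genes had one) and 0 by DESeq2 (0.0651% to 2.99% of all genes per class). Leaving out 1 mouse gave 4 to 12 called in tumor cells (12 without control mouse 2, and 4 without control mouse 1 or 3 or stress mouse 3) and 0 to 2 in DCs (0 without stress mouse 3, and 1 without control mouse 1 or 3). Of all genes, 6.14% to 29.9% were then called in tumor cells (29.9% without control mouse 2) and 0.668% to 3.66% in DCs. Over all cells 3 of 21 were called by edgeR, all lower in stress mice, where 10.1% of all genes were called. This count was 5 without control mouse 2 and 0 without any other mouse.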

How the data were processed

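Single-cell suspensions of fresh liver tumor tissue were sequenced by the authors on the 10x Genomics platform, and the deposited matrices hold raw UMI counts per gene and cell (mm10, Cell Ranger 9.0.0 for control and 7.1.0 for stress libraries). For the settings of that count, nothing is given in the sources used here. Mouse, cluster and cell type were taken from the deposited annotation, whose stated filter leaves out cells with over 20% mitochondrial UMIs or under 200 genes. The stated methods also remove doublets with Scrublet, so the doublets called here, with scanpy 1.11.5 per library and kept in the main fit, are in cells described as cleared of them. UMIs were summed per mouse and cell type or immune cluster (at least 10 cells per mouse, which left out neutrophils and HSCs) and compared by the quasi-likelihood test of edgeR 4.0.16 (R 4.3.3) after filterByExpr and TMM (adjusted p by Benjamini-Hochberg, threshold 0.05). DESeq2 1.42.0, RLE, no filter on low counts, cells thinned to 1000 UMIs, cells without doublets, a replicate block and leaving out each mouse were alternatives. Thinning left out 1274 of 31535 control cells and 1041 of 27259 stress cells, of which 6 and 16 were NK/T cells and 0 were of cluster 20. Losses were unequal between groups in DCs, with 140 of 506 control and 131 of 1050 stress cells, all of cluster 19. In inflammatory myeloid cells they were 734 of 3553 and 250 of 2754. The effect of stress in 2 cell types was compared in 1 model with mouse as a block. Both tools were tested on simulated data. Deviations of same-numbered mice correlated over 0.1 in every pair in monocytes (0.146 to 0.476), cluster 13 (0.297 to 0.421) and cluster 20 (0.153 to 0.349). Pairs of differently numbered mice reached 0.187 in monocytes and 0.158 in cluster 20, above the lowest same-numbered pair, and 0.0166 in cluster 13. The labels tie the numbers to nothing. In these units the blocked value is given where it changes a call. Fold changes are given for receptors with a mean of at least 10 CPM, and for called ones and low counts of Ccr7 and Cx3cr1 chosen after their values were seen. Of the listed genes, those called and the most abundant are named, apart from what is not reported here, and the genes most like a receptor are the top 3 by Pearson's r among genes with 10 CPM in 1 cluster. The receptors and the gene lists were chosen with earlier results of these data known. With 3 mice per group, precision is limited, and depth differed between mice.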

Additional observations from a re-analysis of the deposited data

How the results depend on the processing

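The count of receptors called in cell types (3 of 48 tested) was 13 of 64 without the filter on low counts, 6 of 48 with DESeq2 and 7 of 48 with the replicate block. It was 5 of 35 without called doublets and 4 of 23 with thinned cells, and leaving out 1 mouse gave 1 to 3 (1 without control mouse 1 or 3). The share of all genes called went from 4.97% to 3.599%, 6.85%, 7.11%, 6.07% and 1.64% in that order, and to between 1.46% and 7.14% leaving out 1 mouse. Over the 9 tested immune clusters, of which cluster 10 is the whole NK/T class, the count of 1 of 42 tested became 12 of 72, 6 of 42, 7 of 42, 5 of 36 and 3 of 26 in the same order. The share of all genes was 0.345% at first and 1.60%, 0.979%, 1.54%, 1.05% and 1.16% under these settings. Leaving out 1 mouse gave 0 to 2 (0 without control mouse 1 or 2, 2 without stress mouse 2), where 0.109% to 0.594% of all genes were called. Over all cells the count of 0 (10.1% of all genes) became 2 with DESeq2 (19.6%) and 4 with the block (16.7%), and 0 to 1 leaving out 1 mouse (1 without control mouse 2, with 0% to 11.8% of all genes). Between cell types it became 6 without the filter (0.333% of all genes, against 0.0309%), and 0 to 1 leaving out 1 mouse (1 without control mouse 1, with 0.00774% to 0.110% of all genes). No cause of these differences was tested. The labels tie the replicate number to nothing, and the limit of 0.1 on its correlations was set by choice. Outside monocytes and clusters 13 and 20, some same-numbered pair fell short of it. Cluster 12 missed it at 0.0709 to 0.208, with other pairs up to 0.0267. In monocytes and clusters 13 and 20, the block changed no call other than those of Ccr7 and Ccr1 given above. RLE size factors changed none of the 4 counts.

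Of 27 log2 fold changes followed through the alternatives, 262 of the values kept direction and side of the threshold, 34 passed it newly, 8 lost it and 18 changed direction, all 18 from values between -0.04 and 0.26. Ccr2 in monocytes became -0.023 with thinned cells and -0.029 without doublets, and ranged from -0.18 to 0.49 leaving out 1 mouse. Ccr7 in B cells became -0.26 with thinned cells and -0.14 without doublets (-0.36 to 0.43 leaving out 1 mouse). Cxcr3 in tumor cells became 0.0060 with the block and 0.041 with thinned cells (-0.39 to 0.45). Cxcr4 in monocytes became -0.17 without doublets (-0.19 to 0.33), and Cx3cr1 in NK/T cells ranged from -0.090 to 0.52. The level of Ccr7 in DCs was 519.5 CPM in thinned cells and 620.5 CPM without called doublets, against 293.6 CPM in all cells. Depth limits the genes under about 10 CPM, and 3 mice per group limit all tests.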

Other observations

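DC cluster 19 joined cells of unlike depth. Its 478 cells with fewer than 5000 UMIs, a limit set after the data were seen, carried 254.1 CPM of Ccr1, 119.6 of Cx3cr1 and 108.4 of Ccr2, and the 301 deeper cells 32.0, 6.12 and 29.0 CPM. Cx3cr1 in DCs lay at 33.6 CPM in control mouse 1 and 52.1 in stress mouse 1, against 7.99, 5.24, 4.61 and 3.89 in the other 4 mice, and mouse 1 of each group stood apart. Ccr2 in monocyte clusters 11 and 12 was highest in mouse 2 of both groups, and in cluster 13 in control mouse 3 and stress mouse 2. Monocytes with a Ccr2 UMI carried 288.9 CPM of Ccr1 and 21.7 of Cx3cr1, and those without 205.5 and 31.1, at median depths of 5678 and 4765 UMIs.

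In NK/T cells with a Cxcr6 UMI, Cx3cr1 lay at 39.8 CPM and Cxcr3 at 31.4, and in those without at 16.3 and 45.7. Cells with a Cd8a and no Cd4 UMI and cells with a Cd4 and no Cd8a UMI were close in Cxcr6 (229.7 and 214.4 CPM) and in Cxcr4 (102.6 and 112.2), and these are descriptions over pooled cells without a test.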
